A study of Mus musculus with 24 samples.

Results

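The fibroblast growth factor (FGF) pathway was examined in mouse blastocysts through 10 genes: the ligand genes Fgf4, Fgf5 and Fgf10, the receptor genes Fgfr1, Fgfr2, Fgfr3 and Fgfr4, the adaptor genes Grb2 and Frs2, and Fgfbp1, which encodes an FGF-binding protein. Every array feature carrying one of these gene names was taken, which gave 23 probes among the 56605 on the array, and 9 of the 10 genes were among the 18448 genes tested. The material was total RNA from 24 pools of expanded blastocysts that had been frozen, the stage just before the embryo implants. The pools carried 6 condition codes, HC1, HC2, HC3, HC4, HC5 and HC6, with 4 pools each. Pools held 15 embryos, except in HC6, where they held 20, so the HC6 code and its pool size cannot be told apart. The series concerns bisphenol A, a monomer of plastics that can bind estrogen receptors, and membrane estrogen receptor activation, but the labels tie no code to a treatment, strain or age and name no control. Each code was therefore set against the mean of the other 5. No label ties the pools to separate mothers or cultures, so p-values measure the spread between pools, which may be technical.

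FGF ligands bind receptor tyrosine kinases together with heparan sulfate. The activated receptor phosphorylates the docking protein FRS2, which recruits GRB2 and through it the RAS to ERK cascade. In the mouse blastocyst FGF4 is made by the epiblast precursors of the inner cell mass, and it is known for directing neighbouring inner cells towards primitive endoderm and for keeping trophoblast stem cells dividing. FGFR1 and FGFR2 are the receptors known to carry this signal, and embryos without Grb2 are known to form no primitive endoderm.

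The label of the tissue was set against marker genes of its cell types. All 7 epiblast and inner cell mass markers, all 7 trophectoderm markers and all 6 primitive endoderm markers were well above background on 24 of 24 arrays, well above background being the scanner software's own flag. Of the markers of other tissues, Amh, Inha and Fshr of the granulosa cells and Dcn of stroma were well above background on 0 arrays, whereas Foxl2 and Amhr2 of the granulosa list and Ptprc and Cd68 of the blood list were well above background on all 24 and Hba-a1 of the blood list on 20. The flag was set for 38.6% to 49.7% of the spots of an array, and the 75th percentile by which an array was scaled ran from 47.3 to 128 intensity units. A level below is the log2 of a probe's signal minus the log2 of that percentile, so 0 is the percentile itself, and levels of different probes cannot be ranked against each other. In RNA from whole pools, fewer cells of a type and less RNA per cell cannot be told apart. The number of arrays limits the precision.

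The probes on which the results turn are shown by the first 30 of their 60 bases, 5′ to 3′, with their mm9 coordinates as the array files give them. The exon or untranslated region that each one lies in was not determined here. The probe of Fgf4 lies at chr7:152051089-152051148 on the plus strand.

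Fgf4 A_66_P117201: acagccccatggactgatgggaatgattgg

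The 4 probes of Fgfr1 are shown because their values went separate ways. All lie on the plus strand of chromosome 8, at chr8:26680165-26680224, chr8:26682852-26682911, chr8:26685072-26685131 and chr8:26686086-26686145 in the order printed.

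Fgfr1 A_52_P136162: tgaggccatcgggctggataaggacaaacc
Fgfr1 A_65_P11598: gaggataacgtaatgaagatcgcagacttt
Fgfr1 A_55_P2057777: gagacgcccagggtagcatccgttgctata
Fgfr1 A_55_P2506940: tagggaatgaatttagcacaaactcatttt

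The 2 probes of Fgfr2, on the minus strand at chr7:137307473-137307532 and chr7:137385966-137386025, are shown because they lie 78433 bases apart and did not move together.

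Fgfr2 A_55_P2094881: atgccttatgaaccctgtctgcctcagtat
Fgfr2 A_52_P158800: caacaataggacagtgcttattggggagta

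The 2 probes of Fgfbp1, on the minus strand at chr5:44370164-44370223 and chr5:44370157-44370216, are shown because they share 53 of their 60 bases and so measure nearly the same stretch. Capitals mark the 23 shared bases within the part shown.

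Fgfbp1 A_55_P2713911: gtattctTCCATGGACCACAAACCTAGGTG
Fgfbp1 A_55_P2723125: TCCATGGACCACAAACCTAGGTGcatataa

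The first question was which of the 10 genes could be measured. Fgf4, Fgf10, Fgfr1, Fgfr2, Fgfr3, Fgfr4, Grb2, Frs2 and Fgfbp1 each had a probe well above background on 24 of 24 arrays. Over all genes tested, 71.3% had this. Fgf5, a ligand of the epiblast after implantation, had a single probe, which was well above background on 1 of 24 arrays, in a level range of -5.48 to -2.54, and it was not tested. The test used probes with the flag on 4 or more arrays, which 19 of the 23 met.

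Several genes had probes that differed in detection. Fgf10 had one probe on all 24 arrays, one on 10 and one on 1. Fgfr3, with its 3 probes, had 24, 4 and 0 arrays, and Fgfr4 had 24, 24 and 7. Fgfr1 had 3 probes on 24 arrays and one on 13, and the 2 probes of Fgfr2 both reached 24. Frs2 had 2 probes on 24 arrays and another on 1. The hexamers AATAAA and ATTAAA, the forms of the polyadenylation signal, were searched in the printed strand of each 60-base probe. Either was present in 5 of the 23 probes, namely those of Fgf4 and Fgf5 and one probe each of Fgfr1, Fgfr3 and Frs2, against 13.4% of all probes on the array. The probes of Fgf4, Fgfr1, Fgfr3 and Frs2 among these were well above background on all 24 arrays, and that of Fgf5 was not.

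**Figure D1:**
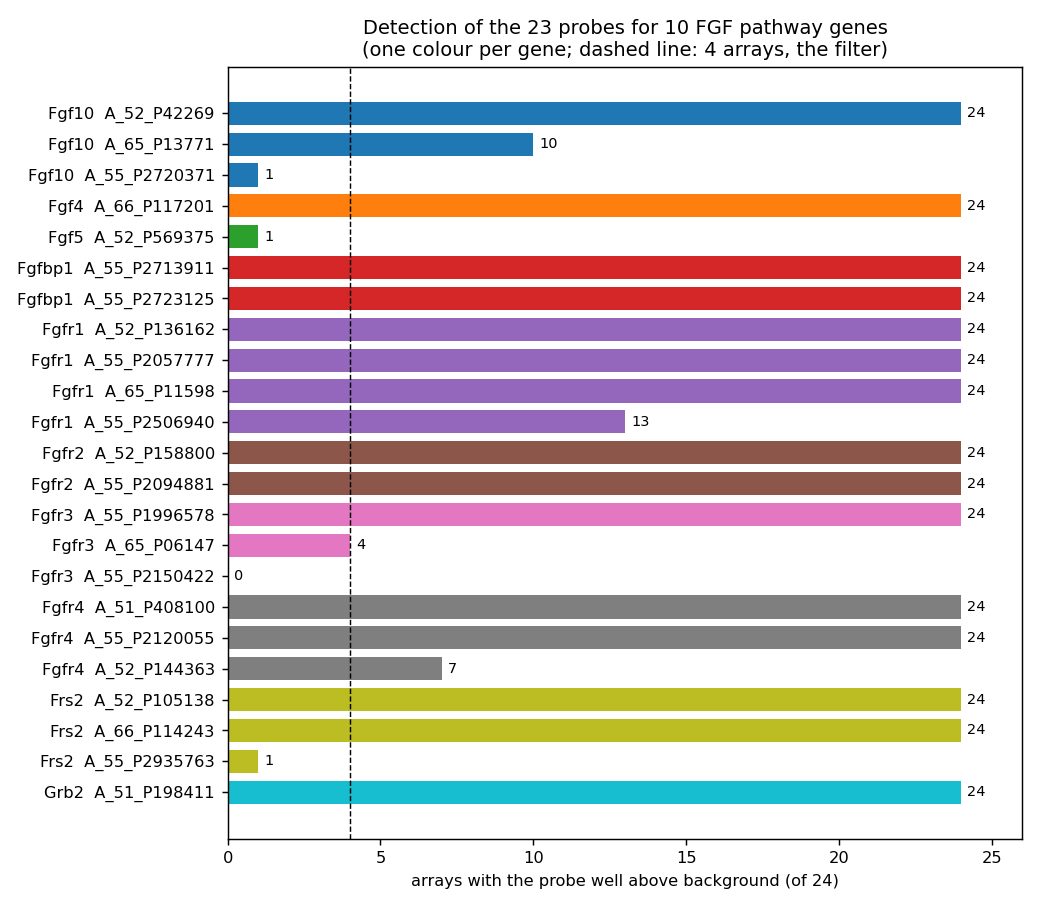
Number of the 24 arrays on which each of the 23 probes was well above background, one bar per probe and one colour per gene; the dashed line marks the 4 arrays needed to be kept. Each gene except Fgf5 has a bar that reaches 24, and the bars of single genes such as Fgf10 differ from 24 to 1.

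The comparison of the conditions asked whether any of these genes differed among the 6 codes. None of the 9 genes tested passed: the limma F-test gave an adjusted p of 1 for each, after Benjamini-Hochberg adjustment over 18448 genes, and 0 of 9 genes had an unadjusted p under 0.05. Over all genes, 0% were called after adjustment and 2.09% before it. Set singly against the other 5 conditions, 0 of 9 genes passed in any condition after adjustment, with 0% of all genes called in each. Unadjusted p under 0.05 was reached by 1 of 9 genes in HC1 (3.2% of all genes), 1 in HC5 (5.49%) and 0 in HC2 (2.25%), HC3 (1.58%), HC4 (1.89%) and HC6 (2.95%). In all 54 contrasts of a gene and a condition the pools of the condition overlapped with the other 20 pools. Of the 135 combinations of a gene and a pair of conditions, 0 passed after adjustment, as for all genes (0%), and 5, or 3.7%, had an unadjusted p under 0.05, against 2.84% over all genes.

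The ligands come first. Fgf4 had levels of 2.70, 2.49, 2.57 and 2.89 in the HC1 pools, 2.74, 2.43, 2.64 and 2.46 in HC2, and 3.02, 2.59, 2.42 and 2.68 in HC3. It stood at 2.94, 2.73, 2.78 and 2.61 in HC4, at 2.85, 2.89, 1.99 and 2.60 in HC5 and at 2.66, 2.68, 2.68 and 2.67 in HC6. All conditions overlapped; HC5 replicate 3 was the lowest pool, and the HC6 pools lay closest together. Between the lowest and the highest pool the signal spanned a 2.05-fold range. The largest of its condition differences was in HC4, at 2.77 ± 0.14 against 2.63 ± 0.22 in the other pools (SD, n = 4 and 20), a difference of 0.14 (95% interval -0.13 to 0.40, adjusted p 0.998 in limma). With single pools left out it ran from 0.0772 to 0.187, and over all 44 alternatives from 0.0162 to 0.197.

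Fgf10, known as a ligand of the epithelial form of FGFR2 in limb and lung budding, had levels of 0.78, 0.16, 0.64 and 0.36 in the HC1 pools. The other 20 pools ran from -0.77 through a median of 0.15 to 0.58. All 4 HC1 pools thus lay above the median of the others, and both groups overlapped. The HC1 mean was 0.49 ± 0.28 against 0.10 ± 0.32 in the other pools (SD, n = 4 and 20), a difference of 0.39 with a 95% interval of 0.02 to 0.75. Its unadjusted p was 0.0387 and its adjusted p in limma 1, so it did not pass. The second kept probe of Fgf10 had an HC1 difference of 0.49 (unadjusted p 0.184 in limma), and its largest was in HC6, at -0.91 (unadjusted p 0.0175).

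Of the receptors, Fgfr1 is the one the epiblast precursors and the primitive endoderm share. Its brightest probe had levels of 5.08, 4.82, 4.79 and 4.94 in the HC6 pools, against a lowest of 4.53, a median of 4.80 and a highest of 5.03 in the other 20. HC6 replicate 1 was the highest of all 24 pools, and both groups overlapped. The HC6 mean of 4.91 ± 0.13 against 4.74 ± 0.14 (SD, n = 4 and 20) gave a difference of 0.17 (95% interval -0.01 to 0.35, adjusted p 0.999 in limma). The 3 other kept probes of Fgfr1 had HC6 differences of -0.35, 0.17 and 0.10, so the probes disagreed in sign.

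Fgfr2, the receptor known from trophectoderm and primitive endoderm, had levels of 0.84, 0.58, 0.67 and 1.01 in the HC6 pools, where its mean was lowest. The other 20 pools ran from 0.50 through a median of 0.83 to 1.27. The groups overlapped, and 2 of the 4 HC6 pools lay above that median. The difference was -0.13 (95% interval -0.40 to 0.13, adjusted p 0.999 in limma), and with single pools left out it ran from -0.212 to -0.0699. Over all 43 alternatives it ran from -0.369 to 0.0484, so its sign was not the same throughout. The second Fgfr2 probe had its largest difference in HC3, at 0.33 (unadjusted p 0.0188), while the first stood at 0.05 there.

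Fgfr3 and Fgfr4, whose roles in the blastocyst are less well described, gave no condition apart. Fgfr3 had condition means between 0.39 ± 0.11 in HC6 and 0.46 ± 0.29 in HC3 (SD, n = 4 each), and the limma F-test gave an unadjusted p of 1. Its pools nevertheless spread over a 2.69-fold range, from -0.39 in HC5 replicate 3 to 1.04 in HC5 replicate 1. Fgfr4 had levels of 1.51, 1.34, 1.68 and 1.50 in the HC3 pools, against 0.84, 1.30 and 1.59 as the lowest, median and highest of the other 20. All 4 HC3 pools lay above that median, and the difference of 0.21 (95% interval -0.05 to 0.47, adjusted p 1 in limma) did not pass.

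Of the adaptors, Grb2 varied little between pools and Frs2 mainly within HC5. Grb2, the link from the receptor complex to the RAS exchange factor SOS, had levels of 3.12, 2.87, 3.12 and 2.93 in the HC1 pools, against 2.6125, 2.8671 and 2.9995 as the lowest, median and highest of the other 20. HC1 replicates 1 and 3 were the highest of all pools, and the difference of 0.15 had a 95% interval of -0.0024 to 0.30 (adjusted p 1 in limma). The SD of Grb2 over the 24 pools, 0.12, was at percentile 5.84 of all genes tested. Frs2, the docking protein on the receptor, had levels of 3.69, 3.93, 4.07 and 2.97 in the HC5 pools, which hold both its highest and its lowest pool of all 24, and 3.34, 3.79 and 3.98 as the lowest, median and highest of the other 20. Its difference in HC5 was -0.10 (95% interval -0.40 to 0.20, adjusted p 0.933 in limma), and without HC5 replicate 4 it was 0.13. The second bright probe of Frs2 had an HC5 difference of 0.01 (unadjusted p 0.947 in limma). Its lowest pool was also HC5 replicate 4, but its highest was HC4 replicate 2.

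Fgfbp1, a secreted protein that releases FGFs from the extracellular matrix, had the largest difference of the 9 genes. Its levels were 0.88, 1.02, 1.03 and 0.47 in the HC5 pools, against a lowest of -0.12, a median of 0.40 and a highest of 0.95 in the other 20. All 4 HC5 pools lay above the median of the others, 2 of them above every other pool, and the groups overlapped. The HC5 mean was 0.85 ± 0.26 against 0.44 ± 0.29 (SD, n = 4 and 20), a difference of 0.41 with a 95% interval of 0.08 to 0.75. With an unadjusted p of 0.0185 and an adjusted p of 0.875 in limma it did not pass. The difference was 0.41 within slide row 2, 0.39 within row 1, and 0.36, 0.74 and 0.32 within the 3 slides. On slides 1 and 2 it rests on a single HC5 pool each, replicates 1 and 2. The second Fgfbp1 probe, which overlaps the first, had a difference of 0.32 in HC5 (unadjusted p 0.0992 in limma). Its HC5 pools stood at 0.78, 0.90, 0.86 and 0.15, and its highest pool of all was HC6 replicate 4, at 0.92.

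**Figure D2:**
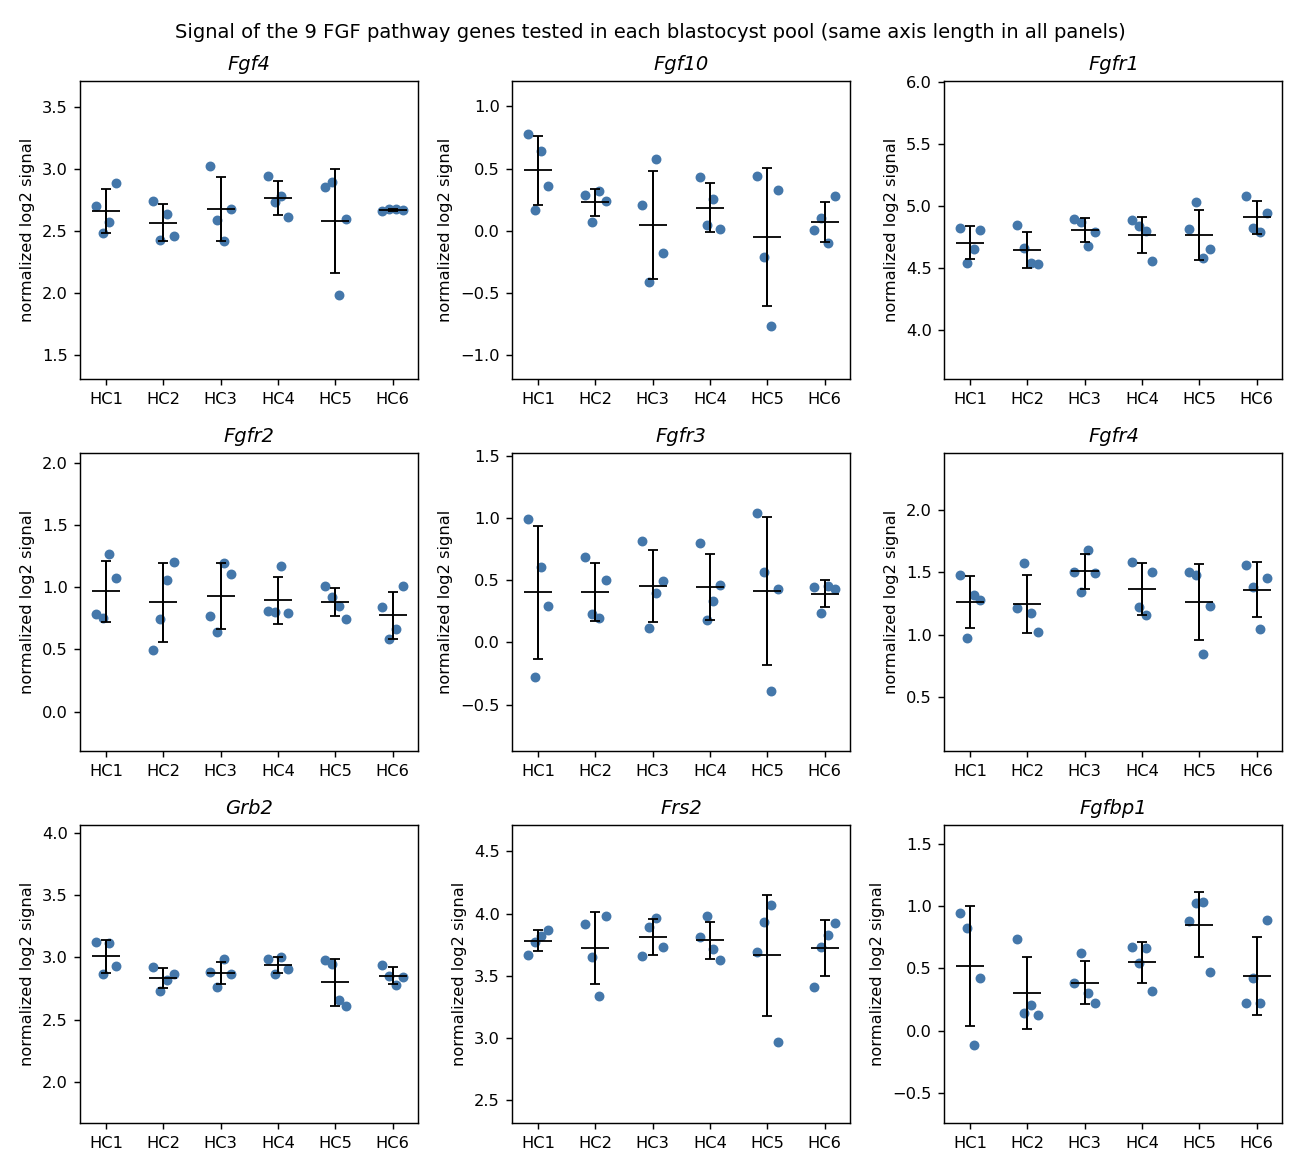
Normalized log2 signal of the 9 genes tested in each of the 24 pools; dots are pools, grouped by condition code, and bars the mean ± SD of 4 pools, on axes of equal length. The pools of all conditions overlap in every panel; Fgfbp1 has its highest mean in HC5 (0.85) and Fgf10 in HC1 (0.49).

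**Figure D3:**
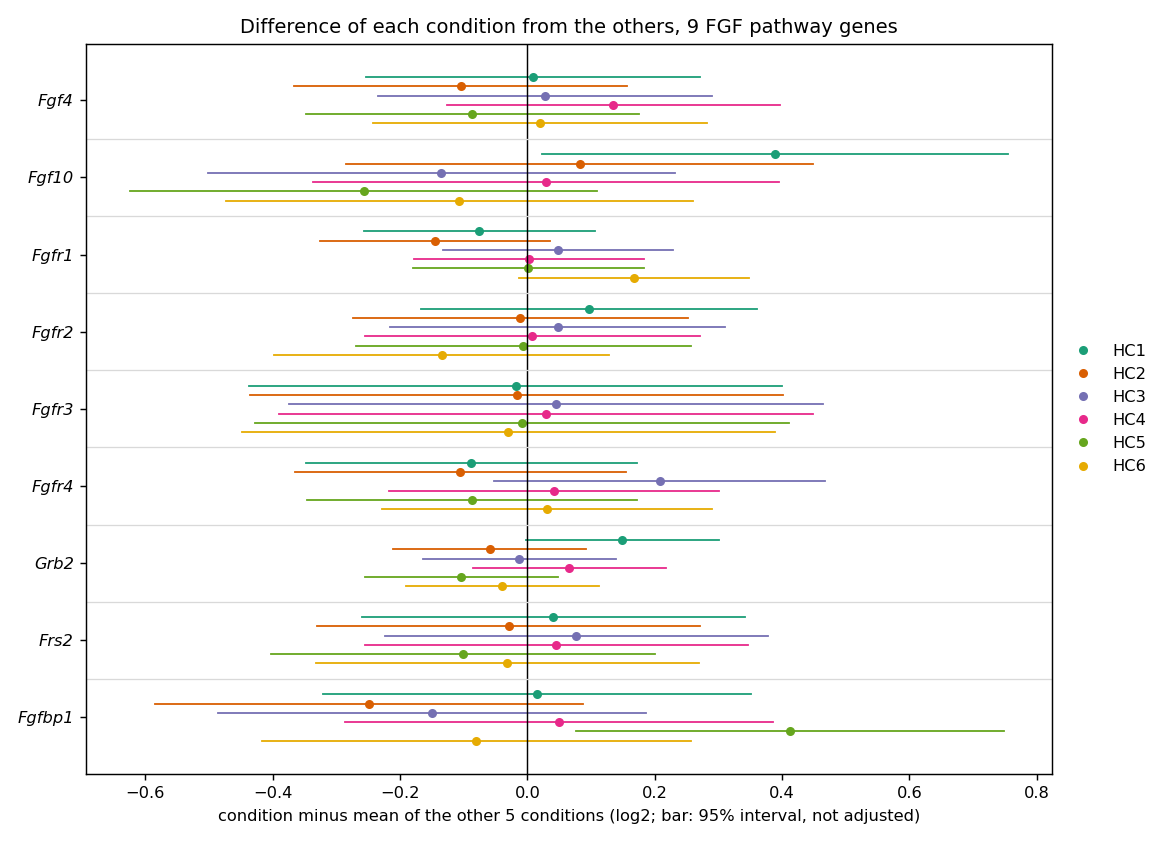
Difference of each condition from the mean of the other 5 (log2, horizontal axis) for the 9 genes, one colour per condition, with 95% intervals not adjusted for the number of genes. The intervals of Fgf10 in HC1 (0.02 to 0.75) and of Fgfbp1 in HC5 (0.08 to 0.75) exclude 0, and neither passed after adjustment.

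The order of the condition means was set against the spread within conditions. For Fgf4 it ran, low to high, HC2, HC5, HC1, HC6, HC3 and HC4, and for Fgfbp1 HC2, HC3, HC6, HC1, HC4 and HC5. For 8 of the 9 genes, Fgfbp1 aside, every gap between neighbouring means was smaller than the SD within conditions. For Fgfbp1 the step from HC4 to HC5 was 0.302, as large as its SD within conditions of 0.300. In HC4 all 9 genes had a difference above 0, with a median of 0.04, and 65.0% of all genes tested had this direction, with a median of 0.05. In HC2 1 of 9 was above 0, with a median of -0.06, against 41.8% and -0.02 over all genes. In HC5 2 of 9 were above 0, with a median of -0.09, against 47.7% and -0.01 over all genes. The pools of HC4 and HC2 were unevenly spread over the slide rows, as given below. The part of slide row in the directions of HC4 and HC2 was not tested.

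Single pools carried much of the spread. By the probes used in the test, HC5 replicate 3 was the lowest of 24 for 4 of the 9 genes, namely Fgf4, Fgf10, Fgfr3 and Fgfr4, and the highest for Frs2 and Fgfbp1. The same pool had the lowest score of the primitive endoderm markers, -0.69, and the highest score of the blood markers, 0.69, a score being the mean log2 deviation of a list's genes from their 24-pool means. HC5 replicate 4 was the lowest for Frs2 and Grb2. HC1 replicate 1 was the highest for Fgf10 and Grb2. The second bright probe of Fgfr4 was also lowest in HC5 replicate 3, and that of Frs2 in HC5 replicate 4. The second probes of Frs2 and Fgfbp1 were highest elsewhere, in HC4 replicate 2 and HC6 replicate 4. The arrays of HC5 replicate 3, HC5 replicate 4 and HC1 replicate 1 were the dimmest. Their 75th percentiles were 57.8, 47.3 and 60.9 intensity units, and the next lowest was 63.3, in HC3 replicate 2. The flag was set for 43.8%, 39.1% and 40.7% of their spots. The parts of array brightness and of cell makeup in these values were not tested.

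The position of the array on its slide was examined as a batch. Each of 3 slides held 8 arrays in 2 rows, so 12 pools lay in each row; HC2 had 3 pools in row 2 and 1 in row 1, HC4 had 1 and 3, and the other codes had 2 and 2. Between the slides, with condition in the model, 0 of 9 genes passed in limma (0% of all genes), and 0 had an unadjusted p under 0.05 (5.57%). Between the rows, 1 of 9 genes passed, against 12.3% of all genes, and 2 of 9 had an unadjusted p under 0.05, against 29.9%. Over all genes, 1698 of those that passed were lower in row 2 and 569 higher, so lower was the more common direction. The median difference between row 2 and row 1 over all genes was -0.07.

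The gene that passed was Fgfbp1. In row 2 its lowest, median and highest levels were -0.12, 0.22 and 0.88, and in row 1 they were 0.38, 0.67 and 1.03. Of the 12 pools of row 2, 9 lay below the lowest pool of row 1, and the rows overlapped through the other 3. Fgfbp1 was lower in row 2 by a difference of -0.37 (95% interval -0.57 to -0.17, adjusted p 0.0221 in limma with condition in the model), with means of 0.32 ± 0.29 in row 2 and 0.70 ± 0.23 in row 1 (SD, n = 12 each). The difference was -0.165, -0.501 and -0.471 within the 3 slides. The overlapping second probe stood at 0.18 ± 0.30 in row 2 and 0.64 ± 0.21 in row 1. Without HC2 replicate 1 the adjusted p was 0.0584, and without HC4 replicate 4 it was 0.0574. It was also above 0.05 when arrays were scaled on probes detected throughout (0.0932), in the authors' log2 values (0.0734), with no filter on dim probes (0.0641) and without HC6 (0.0564), all in limma. With every kept probe tested on its own, the second kept probe of Fgf10, well above background on 10 arrays, also passed between rows, at -2.77 ± 0.82 in row 2 and -2.03 ± 0.30 in row 1 (SD, n = 12 each; difference -0.77, adjusted p 0.0372 in limma). The brightest probe of Fgf10, used in the test by gene, had a difference of 0.10 (adjusted p 0.668 in limma).

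The second gene with an unadjusted p under 0.05 was Fgfr1. Its brightest probe had a difference between row 2 and row 1 of -0.14 (95% interval -0.27 to -0.02, adjusted p 0.112 in limma). The other kept probes of Fgfr1 were higher in row 2, by 0.30 (unadjusted p 0.0346 in limma), 0.17 and 0.06. Of the marker lists, 1 of 7 epiblast genes (Tdgf1), 1 of 7 trophectoderm genes (Gata3), 0 of 6 primitive endoderm genes, 1 of 2 granulosa genes (Foxl2), 1 of 3 blood genes (Ptprc) and 0 of 1 stromal genes tested also passed between rows. The score of the epiblast list ran from -0.27 to 0.19 in row 2 and from -0.07 to 0.31 in row 1, that of the trophectoderm list from -0.42 to 0.16 and from -0.07 to 0.20. The scores ran from -0.61 to 0.47 in row 2 and from -0.44 to 0.43 in row 1 for the granulosa list, and from -0.43 to 0.46 and from -0.48 to 0.69 for the blood list. Of these lists Amh, Inha and Fshr were well above background on 0 arrays, Foxl2, Amhr2, Ptprc and Cd68 on 24 and Hba-a1 on 20. The part of cell makeup in the difference between rows was not tested.

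**Figure D4:**
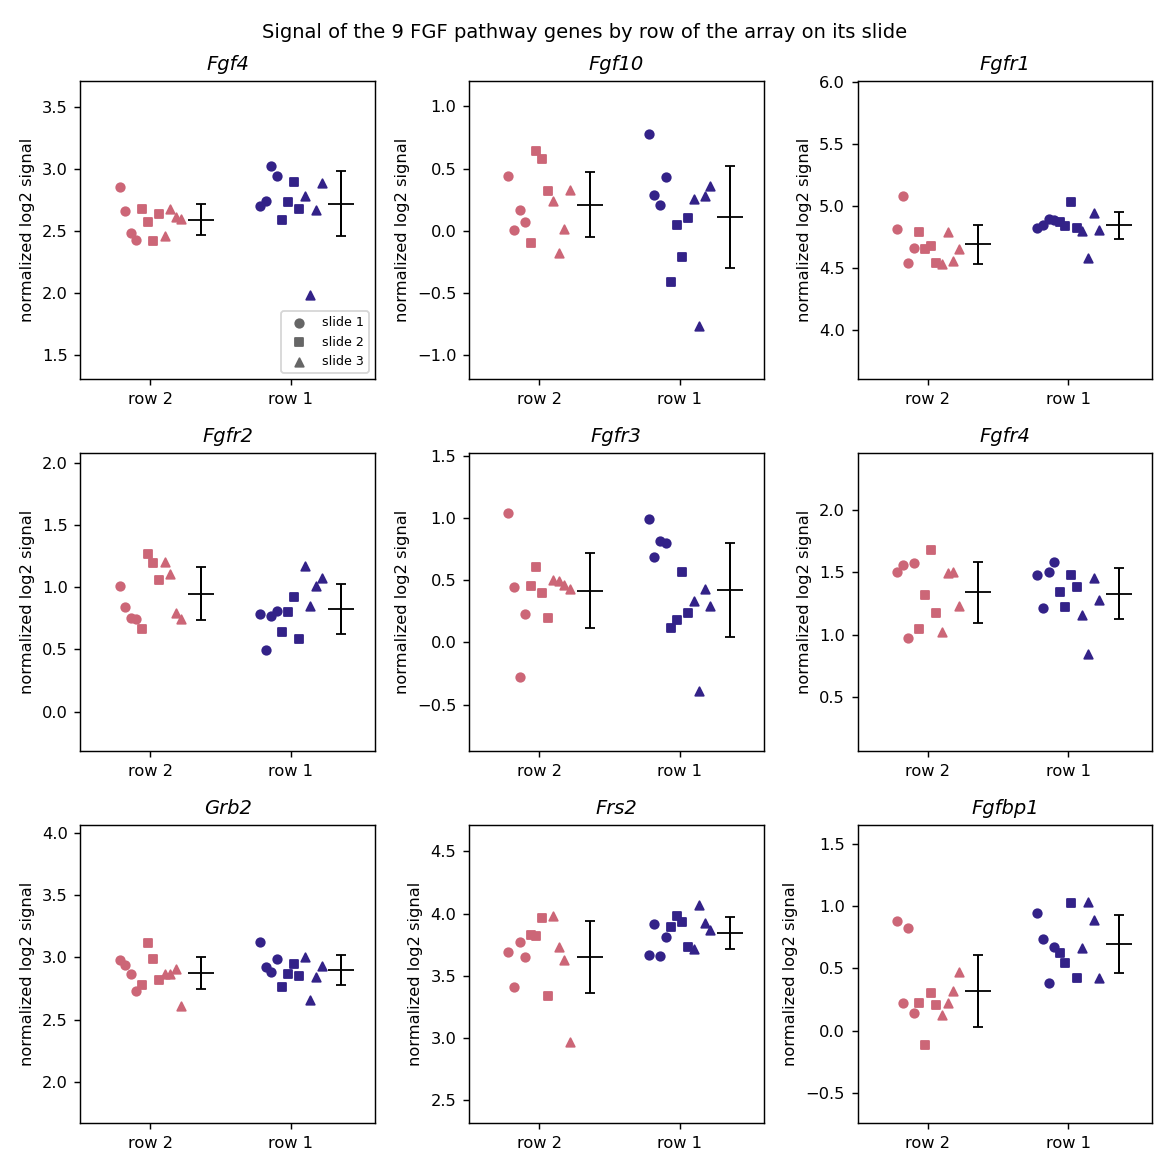
Normalized log2 signal of the 9 genes in the 12 pools whose arrays lay in row 2 of the slides (left) and the 12 in row 1 (right); marker shapes are the 3 slides and bars the mean ± SD. Fgfbp1 has a mean of 0.32 in row 2 and 0.70 in row 1, and in each of the other 8 panels the rows overlap without a difference that passed.

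Relations across the pools were computed between all pairs of the 9 genes and between each of them and Pou5f1 and Nanog of the epiblast, Gata6 of the primitive endoderm and Cdx2 of the trophectoderm. That family held 72 relations, each over 24 pools with a two-sided permutation test of 100000 resamples. Of these, 7 passed by Pearson's r after Benjamini-Hochberg adjustment over the family, all of them positive, and 16 had an unadjusted p under 0.05. By Spearman's rho 0 passed after adjustment, with a smallest adjusted p of 0.0605, and 13 had an unadjusted p under 0.05. The 2 values of a relation come from the same array and RNA, so they share its labelling and scaling. Among all pairs of the 13031 genes well above background on every array and without a missing value, 5.16% had an r of at least 0.585, the smallest that passed here, and 58.1% had an r above 0. Among the 36 pairs of the 9 genes these shares were 16.7% (6 pairs) and 69.4%, given as a description with no test. The test counts both directions, and a further 2.45% of all gene pairs had a negative r of 0.585 or more in size. Of the 72 relations, 9.7% passed. The cutoff is the r of Fgfr3 and Fgfr4, a pair of these 36. The shares at that cutoff therefore cannot show that the 9 genes differ from other genes.

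Fgf4 covaried with Fgfr1 and Fgfr3, genes of 2 receptors. For Fgf4 and Fgfr1 r was 0.62 (permutation p 0.00115, adjusted 0.0276) and rho 0.65 (permutation p 0.00084, adjusted 0.0605), and r was still 0.62 without the 2 pools farthest from the median of Fgf4. Within the 3 slides r was 0.57, 0.68 and 0.60, and it was 0.50 in slide row 2 and 0.76 in row 1. For Fgf4 and Fgfr3 r was 0.67 (permutation p 0.00049, adjusted 0.0274) and rho 0.53 (permutation p 0.00865, adjusted 0.156). Without the 2 farthest pools its r was 0.45 (permutation p 0.0331, not adjusted). It was 0.76, 0.13 and 0.75 within the slides, and 0.61 and 0.76 within rows 2 and 1.

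Fgfr3 and Grb2 had an r of 0.59 (permutation p 0.00277, adjusted 0.0309) and a rho of 0.62 (permutation p 0.00173, adjusted 0.0623). Fgf10 and Grb2 had an r of 0.64 (permutation p 0.00076, adjusted 0.0274) and a rho of 0.55 (permutation p 0.00562, adjusted 0.135). Without the 2 farthest pools r was 0.55 for Fgfr3 and Grb2 and 0.51 for Fgf10 and Grb2 (permutation p 0.00719 and 0.0156, not adjusted). Within the slides r was 0.65, 0.72 and 0.45 for Fgfr3 and Grb2, and 0.83, 0.72 and 0.41 for Fgf10 and Grb2. In slide row 2 the values were 0.34 and 0.44, and in row 1 they were 0.82 and 0.86.

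The other 3 relations had a permutation p above 0.05, not adjusted, without the 2 pools farthest from the median of the gene named first. Fgf10 and Fgfr3 had an r of 0.60 (permutation p 0.00221, adjusted 0.0309) and a rho of 0.42 (permutation p 0.0403, adjusted 0.226), with an r of 0.37 without those pools (permutation p 0.0886). Fgfr3 and Fgfr4 had an r of 0.59 (permutation p 0.00254, adjusted 0.0309) and a rho of 0.42 (permutation p 0.0408, adjusted 0.226), with 0.29 without them (permutation p 0.183). HC5 replicate 3 was one of the farthest pools in both. Frs2 and Gata6 had an r of 0.64 (permutation p 0.003, adjusted 0.0309) and a rho of 0.44 (permutation p 0.0323, adjusted 0.226), with 0.39 without HC2 replicate 3 and HC5 replicate 4 (permutation p 0.0718). Within the slides r was 0.65, 0.34 and 0.78 for Fgf10 and Fgfr3, 0.60, 0.19 and 0.70 for Fgfr3 and Fgfr4, and 0.47, 0.18 and 0.81 for Frs2 and Gata6. Within rows 2 and 1 it was 0.23 and 0.81 for Fgf10 and Fgfr3, 0.40 and 0.79 for Fgfr3 and Fgfr4, and 0.69 and -0.12 for Frs2 and Gata6, so the last did not hold within row 1.

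**Figure D5:**
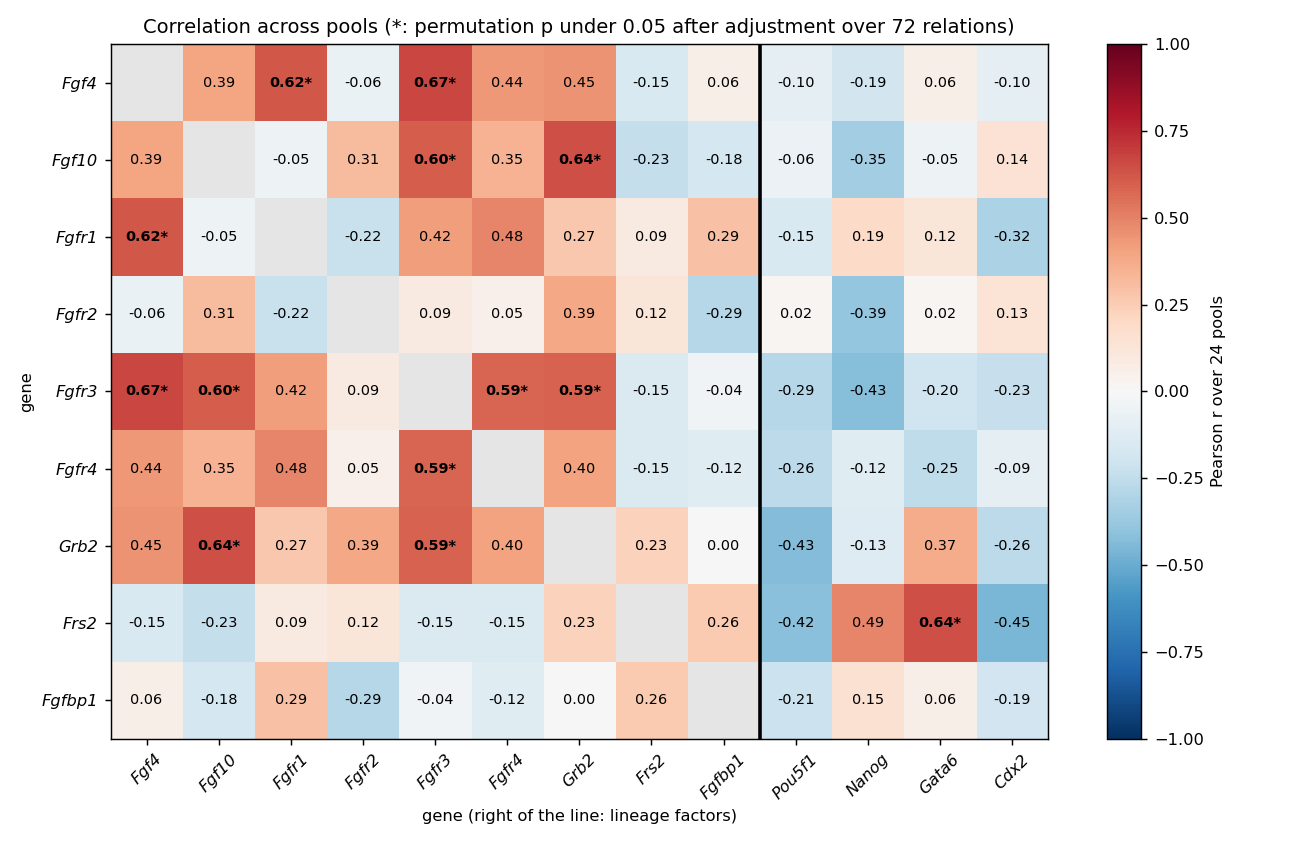
Pearson's r over the 24 pools between the 9 genes, and between each of them and 4 lineage factors to the right of the line; stars mark the 7 relations with a permutation p under 0.05 after adjustment over 72. The starred values run from 0.59 for Fgfr3 and Fgfr4 to 0.67 for Fgf4 and Fgfr3, and only Frs2 with Gata6 (0.64) joins one of the genes to a lineage factor.

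The probes of one gene were set against each other over the pools, in 14 pairs of kept probes. Of these, 3 passed after adjustment over the 14. The overlapping Fgfbp1 probes had an r of 0.92 (rho 0.91), the Frs2 probes, 521 bases apart, 0.83 (rho 0.76), and the 2 Fgfr4 probes well above background on 24 arrays, which share 4 bases, 0.80 (rho 0.75). The adjusted permutation p of r and of rho was 7e-05 and 0.00014 for Fgfbp1, 9.3e-05 and 0.00035 for Frs2 and 7e-05 and 0.00037 for Fgfr4. Without the 2 farthest pools r was 0.90, 0.65 and 0.73, and within slides the lowest was 0.92, 0.76 and 0.68. The 6 pairs among the Fgfr1 probes shown above had r between -0.01 and 0.35, with adjusted permutation p from 0.275 to 0.981. The 2 Fgfr2 probes shown above had an r of 0.27 (permutation p 0.202, adjusted 0.354). The 2 kept probes of Fgf10 had an r of 0.25 (permutation p 0.239, adjusted 0.372) and those of Fgfr3 0.08 (permutation p 0.708, adjusted 0.827), and the dimmest kept probe of Fgfr4 had 0.33 and 0.27 with the other two (adjusted permutation p 0.275 and 0.354). What is said of Fgf10, Fgfr1, Fgfr2 and Fgfr3, the relations included, therefore holds for the brightest probe alone. Fgf4 and Grb2 had a single probe each, so their levels and relations could not be set against a second probe. For Fgfr4 the levels and relations were also taken from the brightest probe. Its second bright probe had an HC3 difference of 0.15 (unadjusted p 0.228 in limma), and its relations to other genes were not computed.

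Fgf4 and Fgfr2 were also compared with the 10273 named genes well above background on every array, by Pearson's r over the 24 pools, as a description. The genes most like Fgf4 were Fam193b (r 0.87), B4galt1 (0.86) and Man2c1 (0.82), which without the 2 pools farthest from the median of Fgf4 had 0.75, 0.77 and 0.61. Those most like Fgfr2 were Mbd2 (r 0.75), Dpp8 (0.72) and Rhob (0.71), or 0.70, 0.66 and 0.64 without the 2 farthest. With the means of the slide rows removed these values were 0.85, 0.85 and 0.86 for Fgf4, and 0.78, 0.83 and 0.78 for Fgfr2.

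The rest of the pathway was read from 5 lists with 81 genes on the array, of which 61 were tested. In the F-test 0 of the 61 passed after adjustment (0% of all genes), and 0 had an unadjusted p under 0.05 (2.09%). Of 19 other FGF ligand genes 7 were tested and 6 had no probe well above background on any array. The smallest F-test p among them was that of Fgf11 (0.284), and Fgf23, the hormone of phosphate balance, had a level of 4.32 ± 0.33 (SD, n = 24). Fgf8, a ligand of gastrulation, and Fgf18 were well above background on 20 and 17 arrays.

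Of 22 genes for co-receptors, binding proteins and heparan sulfate enzymes 17 were tested. Flrt1, a membrane partner of FGF receptors, had the smallest p of the list in the F-test (0.097). Its level was -1.51 ± 0.37 in the HC5 pools, against -0.81 ± 0.50 in the other 20 pools (SD), and it was well above background on 23 arrays. Sdc1, a heparan sulfate core protein, stood at -2.18 ± 0.55 in HC1 and -1.66 ± 0.29 in the others. Ext1 and Ndst2, which build and sulfate the heparan sulfate chain, had F-test p of 0.224 and 0.237.

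Of 13 other docking proteins and exchange factors 11 were tested. Sos1, the RAS exchange factor that GRB2 binds, had the smallest F-test p of the 5 lists, 0.0576 (adjusted p 1 in limma). Its level was 0.02 ± 0.36 in the HC5 pools, against 0.42 ± 0.22 in the other 20 pools (SD). Gab1 and Gab2, docking proteins that GRB2 carries, had F-test p of 0.362 and 0.295, and Crk, another adaptor, 0.262.

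All 14 genes of the RAS to ERK cascade were tested. Shoc2, a scaffold of RAF activation, had the smallest F-test p among them (0.226), and Nf1, Braf and Mapk3 had 0.29, 0.369 and 0.447. Mapk3, which encodes ERK1, stood at 0.42 ± 0.23 in HC6 and 0.66 ± 0.20 in the other pools (SD, n = 4 and 20).

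Of 13 feedback and target genes 12 were tested. Dusp4, a phosphatase that FGF signalling induces against ERK, had an F-test p of 0.144, with 2.31 ± 0.33 in HC5 and 2.65 ± 0.29 in the other 20 pools (SD). Spry2, an inhibitor induced by the pathway, had an F-test p of 0.349, with 2.20 ± 0.17 in HC2 and 2.40 ± 0.15 in the others. Egr1, an immediate target of ERK, was well above background on 11 arrays, and Spred3 on 17.

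In HC5, the condition of smallest p for Sos1, Flrt1 and Dusp4, 4 of 7 other ligand genes, 2 of 11 docking genes, 5 of 17 co-receptor genes, 9 of 14 cascade genes and 9 of 12 feedback genes had a difference above 0, with medians of 0.04, -0.09, -0.14, 0.03 and 0.04, against 47.7% and -0.01 over all genes. Between the slide rows 5 of the 61 genes, or 8.2%, passed, against 12.3% of all genes. They were Fgf1, Fgf6, Ndst1, Ptpn11 and Spry4, named after their values were seen.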

How the data were processed

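RNA of 24 pools was hybridised one-colour, with Cy3. Deposited spot intensity values were extracted with version 10.10.1.1 of Agilent Feature Extraction. Per the file headers, background subtraction and detrending within the array gave the processed intensity, with no scaling between arrays. The deposited flags mark spots that are well above background, saturated or outlying (0 were saturated). The log2 values that the authors deposited for 27101 probes, which cover 18 of the 19 kept probes of the 10 genes, served as an alternative; their medians per array were 7.00 to 7.01, each column correlated best with its own array, and the normalization is not given in the sources used here. The submitters' processing notes also name limma.

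Outlier and control spots were left out, log2 processed signal was averaged per probe, and each array's 75th percentile over probes was subtracted. Kept probes were well above background on at least 4 arrays, with at least 2 values per condition, and the brightest kept probe stood for a gene. Gene names follow the array files, with 519 probes updated through synonyms and 1517 through accessions; none was renamed to one of the 10 genes. The limma 3.58.1 fit (R 4.3.3, data.table in version 1.17.8) had 6 condition means, Benjamini-Hochberg adjustment and a threshold of 0.05. Condition contrasts were adjusted within a condition, and the 15 pairs over genes and pairs together. Python 3.11.15, numpy 2.4.6, pandas 2.3.3, scipy 1.17.1 and matplotlib 3.10.9 did the rest. The code was tested on simulated arrays.

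Alternatives were normexp (offset 50) with quantile normalization, quantile normalization, another percentile, the authors' table, filters and probe rules, slide, slide row and replicate number as blocks, array weights, single pools left out, HC6 left out, and values within slides. Slide row as a batch, values within rows and relations under other scalings, and the share of all gene pairs, were added after seeing the data. From each list at most 4 genes of smallest F-test p are named, and for Fgf4 and Fgfr2 the 3 genes most like them, without features known by an accession, probe, Gm number or Rik clone. The 10 genes, the lists and the markers were chosen with earlier results of these data known. A marker gene of the lists is not reported here.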

Additional observations from a re-analysis of the deposited data

Results flagged for a closer look

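Each of the 54 groups of 4 pools, a gene in a condition, was examined for a pool far from the other 3, by its gap to the nearest of them against Dixon's 95% critical value for the share of the range. Chance gives about 1 in 20 such groups, and 3 of the 54 were found. Fgfr2 in HC4 replicate 3 stood at 1.175, with the nearest pool at 0.806. Fgfr3 in HC6 replicate 2 stood at 0.236, with the nearest at 0.432. Fgfbp1 in HC2 replicate 1 stood at 0.733, with the nearest at 0.207; this pool was the one HC2 pool in row 1 of its slide. What sets these pools apart was not tested.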

How the results depend on the processing

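For the 9 genes, 18 results (the F-test and the largest condition difference of each) were recomputed under the alternatives, and 0 passed under any of them. The differences kept their direction except in 3 genes. Fgfr3 in HC3 turned to -0.77 with the mean of its kept probes and to -0.121 within slide 2, and ran from -0.0752 to 0.158 with single pools left out. That mean takes in the dim kept probe of Fgfr3, well above background on 4 arrays and on 0 in HC3. The dim probe had an HC3 difference of -1.58, against 0.04 for the brightest. Frs2 in HC5 turned to 0.046 with array weights, 0.014 and 0.16 within slides 1 and 2 and 0.173 within slide row 1, and ran from -0.236 to 0.131 with single pools left out. Fgfr2 in HC6 turned to 0.0484 within slide 1 and 0.00585 within slide row 1. Slides 1 and 2 held a single HC5 pool each, and slide 1 a single HC6 pool. Fgfbp1 in HC5 ran from 0.275 to 0.739.

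Counts over all genes stayed at 0 apart from these: HC2 had 2 genes called in the authors' table and 2 with array weights, HC4 had 2 with array weights, HC5 had 1 with no filter, and slide had 1 with every probe on its own. With single pools left out the counts were 0 to 1 for the F-test, HC1, HC5 and slide, 0 to 4 for HC2, 0 to 2 for HC4, and 0 to 4 for pairs. Between slide rows 2267 genes were called, and 1198 with quantile normalization, 1206 with the other percentile, 1367 in the authors' table, 1294 with a filter of 1 array, 504 with no filter, 1510 without HC6, and 484 to 3322 with single pools left out. The Fgfbp1 difference between row 2 and row 1 did not pass with the other percentile (-0.287, adjusted p 0.0932 in limma), the authors' table (-0.236, 0.0734), no filter (-0.368, 0.0641) or HC6 left out (-0.353, 0.0564), and ran from -0.431 to -0.309 with single pools left out. The causes were not tested.

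The 7 relations that passed kept their sign in all 10 alternatives over slides, pools and scalings; within slide row 1 alone Frs2 and Gata6 had an r of -0.12. The labels link pools of different codes only by a replicate number, and that number went mostly with the slide. All pools of replicate 1 lay on slide 1 and all of replicate 4 on slide 3. Over 60 pairs of pools with the same number and different codes the correlation of deviations ran from -0.32 to 0.34 (median -0.01). Pools of different codes had a median of -0.033 on the same slide and -0.0012 on different slides. Of 24 pools, 13 correlated best with their own number. Pools of other numbers were the more numerous candidates, and the count to be expected without pairing was not computed. With the replicate block 0 genes passed in the F-test, each condition and the pairs, and Fgfbp1 in HC5 stood at 0.413. Dim probes limit what Fgf5 can show.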
